A study of Mus musculus with 18 samples.

Results

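The genes described here are 53 of the 21923 genes in the table. They encode nucleolar proteins that build ribosomes, subunits of the RNA exosome and subunits of RNase P and RNase MRP. They are a list of gene names that uses no threshold on a measured value, drawn up with earlier results of these data known, and all 53 passed the filter on low counts in every comparison. Polysomal RNA of cortical astrocytes was taken by translating ribosome affinity purification (TRAP), in which ribosomes carrying the protein L10a fused to EGFP are immunoprecipitated (IP) together with the mRNA on them. The input is RNA of the cortical lysate before the IP and holds all cell types. The cKO mice (labelled GLUT1 flox/flox;GLAC +/wt) carry a loxP-flanked Slc2a1 gene and the tamoxifen-inducible CreERT2 in the GLAST (Slc1a3) locus. The controls (labelled WT, GLAC +/wt) have an intact Slc2a1 gene and carry the same CreERT2. All mice of both genotypes were male C57BL/6 mice in their home cage, received the Cre-dependent virus for EGFP-L10a under the human GFAP promoter, were given tamoxifen for 5 days at 8 to 10 weeks of age starting 7 days after the virus, and were sampled 60 days later. Tagged ribosomes therefore come from cells that had Cre activity and used the GFAP promoter. The libraries used are IP and input of 3 control animals (numbered 11, 15 and 19 after their IP library) and 4 cKO animals (1, 5, 9 and 17), which makes 7 IP and 7 input libraries. Input libraries were given to animals by the numbering of the columns, each input having the number after its IP.

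Ribosomes are built in the nucleolus, where RNA polymerase I copies the ribosomal RNA precursor. The small subunit processome folds and cuts the part of the precursor that becomes small subunit RNA, while a separate set of factors matures the large subunit. Small nucleolar ribonucleoproteins (snoRNPs) guide modification of the RNA, methylation by the box C/D class and pseudouridylation by the box H/ACA class. RNase MRP cuts within the precursor and its relative RNase P trims transfer RNA. The RNA exosome, a barrel of ring and cap subunits that works with exoribonucleases, finishes ribosomal RNA ends and degrades faulty RNA. All brain cells that make protein use these factors, astrocytes and neurons among them.

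The total estimated count per library lay between 12570309 and 40734343 for IP and between 4686605 and 22160541 for input. Levels are given as counts scaled to a common library total (CPM), and they compare libraries, not genes of different length. Gja1, the astrocytic gap junction gene used to check the IP, was 11.3 to 15.3 times higher in the IP than in the input of each of the 7 animals. The summed level of 10 astrocyte markers was 32734 to 63908 CPM in IP and 3091 to 3539 CPM in input, and that of 10 neuron markers was 2648 to 4000 CPM in IP and 10672 to 18574 CPM in input. The study dropped IP samples in which neuronal genes were high. The IP libraries used were therefore selected for low neuronal genes, and how far that choice lowered their neuron sums was not tested. The lowest astrocyte sums in IP were those of animals 17, 19 and 5. Summed over the whole gene, Slc2a1 was at 65.8 to 70.8 CPM in the control IP libraries and 63.9 to 70.3 CPM in the cKO ones (log2 fold change -0.013, SE 0.12, edgeR quasi-likelihood test, adjusted p = 1). A gene-level count does not separate the loxP-flanked exons from the others, so it does not check the deletion, and control and cKO name the labels of the libraries throughout. The study reports lower Slc2a1 in cKO IP samples by qPCR and by reads from a subset of its exons. No member was at 0 in any library. Summed over the 53 members, the level was 2079 to 2372 CPM in IP and 2099 to 2322 CPM in input, and these ranges overlap.

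Between IP and input the members split. By edgeR's quasi-likelihood test over 14381 genes with Benjamini-Hochberg adjustment, 14 members were higher in IP, 11 were lower and 28 did not pass the threshold of 0.05. Of all genes tested, 66.5% passed, and 31.8% of all genes were higher and 34.7% lower. The members' median log2 IP/input ratio was 0.041, beside -0.12 over all genes tested. A ratio of IP to input holds how much of a transcript the tagged cells have and how many ribosomes it carries. It also holds any RNA of other cells left in the IP. Median marker levels in IP were 0.36 times the input for neurons, 0.38 for microglia, 0.35 for endothelial cells and 0.34 for oligodendrocytes. How much such RNA bears on the members' ratios was not tested. The libraries cannot tell these parts apart. Nor can fewer cells of a type be told from less RNA per cell in such bulk samples. The groups of 7 IP and 7 input libraries did not overlap for 6 members that were higher in IP (Exosc5, Exosc3, Utp18, Exosc4, Imp3 and Imp4; 21.5% of all genes did so) and for 2 that were lower (Nop58 and Wdr12; 19.8% of all genes). The directions of the smaller ratios depend on the scaling. With libraries scaled by their total alone, the median of all genes moved from -0.12 to -0.50, 5 members were higher (Exosc5, Exosc3, Utp18, Exosc4 and Imp3) and 23 lower, while the median member stayed at about the same percentile of all genes (55.4 and 55.5). Of the 30 members with a ratio above 0, 17 then lay below 0, Pop7 the one of them that had passed as higher (-0.10), and none turned the other way.

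**Figure D1:**
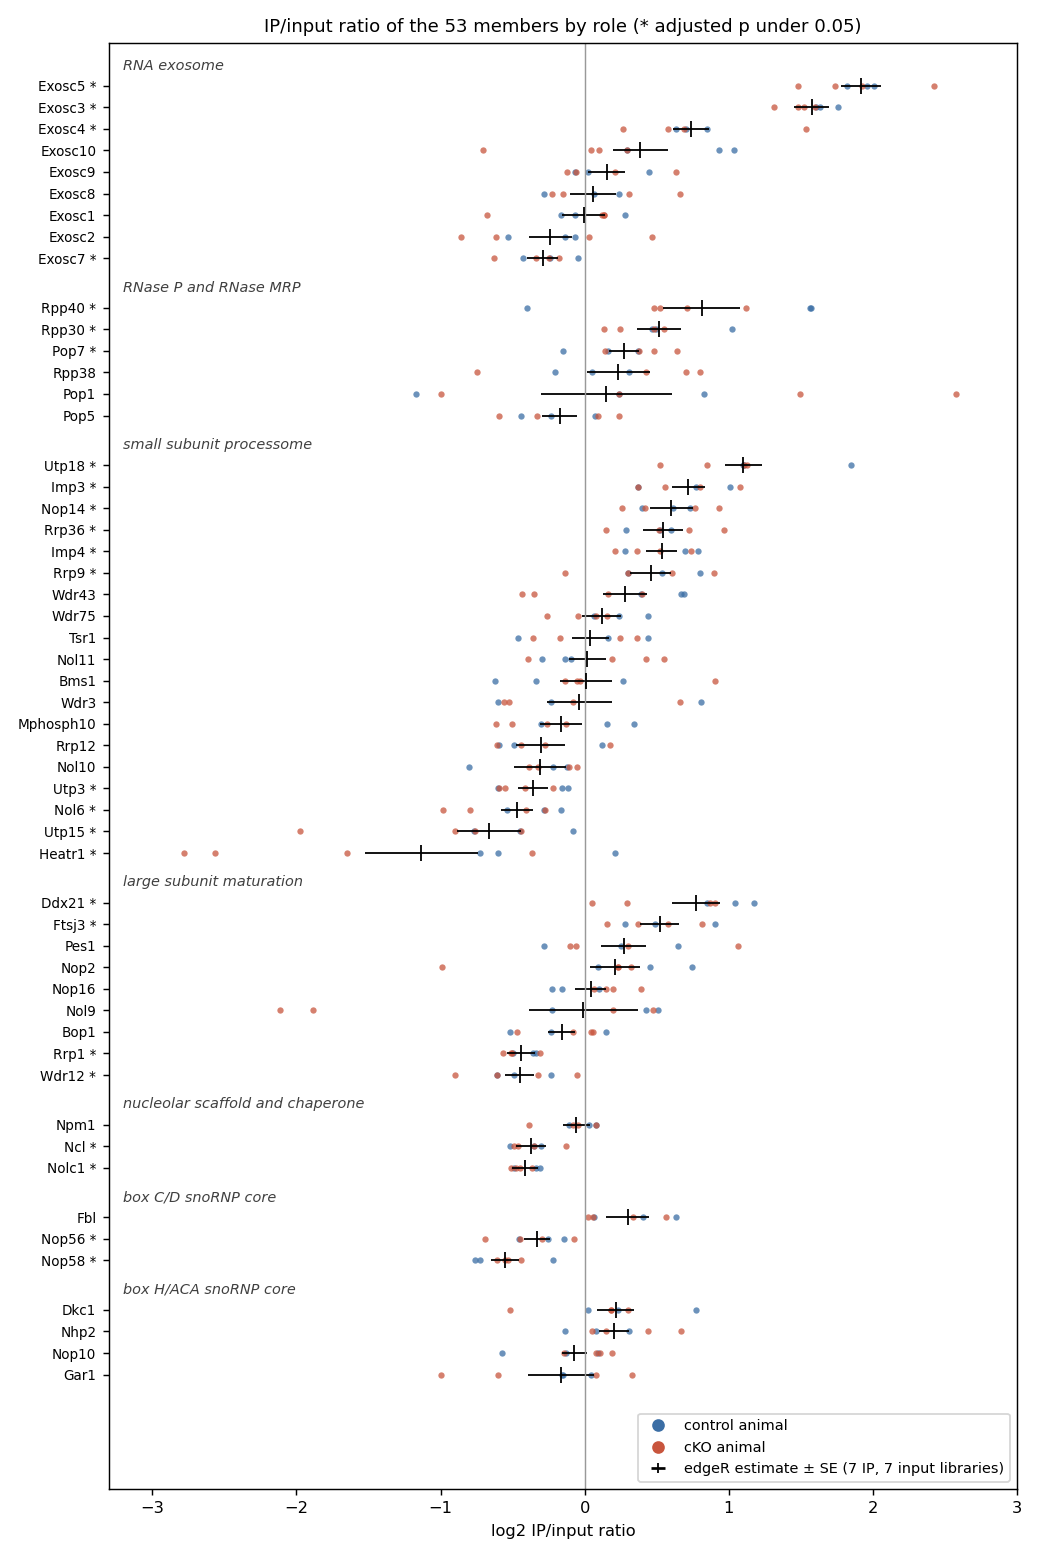
log2 ratio of IP to input for each of the 53 members, grouped by role, with the 3 control animals in blue and the 4 cKO animals in red as single points and the edgeR estimate with its standard error as a black cross. Exosc5, Exosc3 and Utp18 stand to the right in all 7 animals, and the blue and red points are mixed for most genes.

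Of the 9 RNA exosome genes, 3 were higher in IP, 1 was lower and 5 did not pass, and the members with the highest ratios of all were among them. Exosc5, a ring subunit, was at 47.2, 37.2 and 42.4 CPM in the control IP libraries and 40.9, 38.3, 49.2 and 27.03 CPM in the cKO ones. In input it was at 11.7, 10.5 and 10.9 CPM in the control inputs and 12.2, 10.1, 9.17 and 9.70 CPM in the cKO inputs. The lowest IP library, that of animal 17, was above every input library, and the log2 IP/input ratio was 1.92 (SE 0.14, adjusted p = 2.29e-09), a 3.78-fold difference. Exosc3, a cap subunit that is mutated in a human pontocerebellar hypoplasia, was at 46.7, 43.8 and 38.3 CPM in the control IP libraries and 38.4, 39.7, 49.5 and 37.3 CPM in the cKO ones. The input libraries had 15.4, 12.9 and 12.4 CPM in the control inputs and 13.4, 13.1, 17.7 and 15.04 CPM in the cKO inputs, again with no overlap. The log2 ratio was 1.57 (SE 0.12, adjusted p = 3.59e-09), and the ratio in single animals ran from 2.48 to 3.38-fold. Exosc4, another ring subunit, had a log2 ratio of 0.74 (SE 0.12, adjusted p = 5.18e-05), with 1.20-fold in animal 5 and 2.89-fold in animal 9. It overlaps Oplah in the annotation. Exosc7, also of the ring, was lower in IP at -0.29 (SE 0.10, adjusted p = 0.0209), a call that was lost when IP library 15, 9 or 17 or input library 2 was left out (adjusted p between 0.0503 and 0.148). The ring subunits Exosc8 and Exosc9 and the cap subunits Exosc1 and Exosc2 had log2 ratios between -0.24 and 0.15 that did not pass. Exosc10, the nuclear exoribonuclease of the complex, was at 20.7, 27.996 and 27.2 CPM in the control IP libraries and 20.7, 19.997, 25.4 and 9.23 CPM in the cKO ones. Input levels were 16.9, 13.7 and 14.2 CPM in the control inputs and 20.03, 16.4, 23.7 and 15.04 CPM in the cKO inputs. The log2 ratio was 0.39 (SE 0.19, adjusted p = 0.0851), with IP library 17 the lowest of all 14 libraries. Without that library the ratio was 0.56 (adjusted p = 0.00189), and without IP library 11 it was 0.51 (adjusted p = 0.0454). Subunits of the same barrel thus ranged from 0.816 to 3.78 times the input level.

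The 3 members with the highest ratios are the RNA exosome genes Exosc5 and Exosc3 and the processome gene Utp18, and the bases around their annotated starts are shown because the same short word occurs in 2 of them. The sequences are those of RefSeq for GRCm38.p6, from 60 bases before the start to 10 bases after it, with CACGTG (the E-box of basic helix-loop-helix factors) and the palindromic NRF1 motif in capitals.
Exosc5 (chr7:25659093-25659162, plus strand): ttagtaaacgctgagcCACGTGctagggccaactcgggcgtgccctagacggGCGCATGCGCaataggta
Exosc3 (chr4:45320607-45320676, minus strand): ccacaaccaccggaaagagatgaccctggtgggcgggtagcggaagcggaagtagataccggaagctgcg
Utp18 (chr11:93885757-93885826, minus strand): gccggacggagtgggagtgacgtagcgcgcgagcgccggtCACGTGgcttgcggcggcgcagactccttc
Exosc5 has both words, Utp18 has the E-box and Exosc3 has neither in this window. Whether a factor binds there was not measured.

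**Figure D2:**
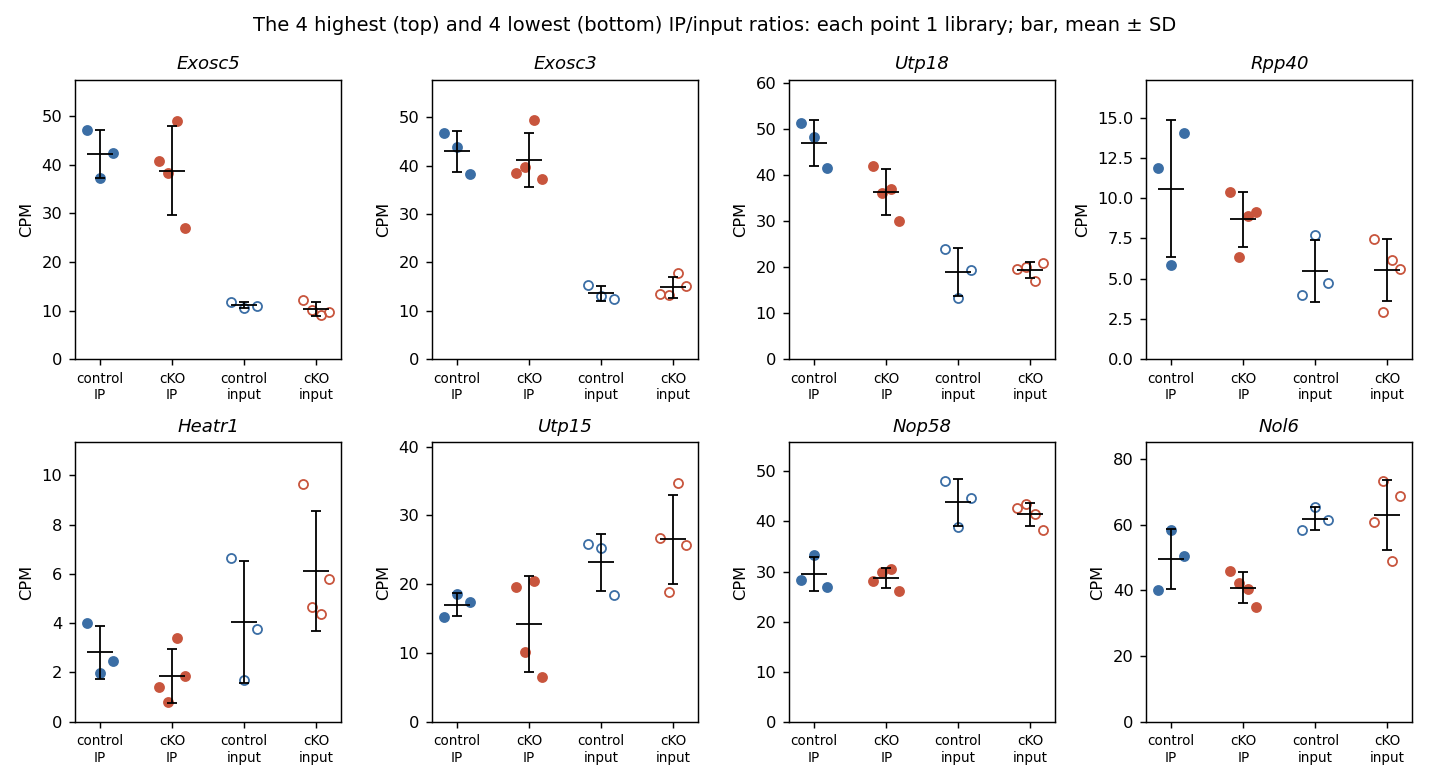
CPM of the 4 members with the highest and the 4 with the lowest IP/input ratio, with 1 point per library (filled for IP, open for input), the group mean as a bar and the SD as whiskers, in 3 control and 4 cKO libraries per fraction. Exosc5, Exosc3 and Utp18 are separated between fractions in every library, while Rpp40, Heatr1, Utp15 and Nol6 overlap.

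Subunits of RNase P and RNase MRP were higher in IP for 3 of 6 members and lower for none. Among all genes tested, 31.8% were higher and 34.7% lower. Rpp40, a protein subunit of both enzymes, was at 11.8, 5.83 and 14.04 CPM in the control IP libraries and 10.4, 6.31, 8.89 and 9.15 CPM in the cKO ones. In input it was at 4.00, 7.68 and 4.74 CPM in the control inputs and 7.43, 2.90, 6.18 and 5.61 CPM in the cKO inputs, so the fractions overlapped, and in control animal 15 the IP was below the input. Its log2 ratio was 0.81 (SE 0.27, adjusted p = 0.014), the fourth highest of the members. Rpp30, which is shared by both enzymes, was higher in IP at 0.52 (SE 0.15, adjusted p = 0.00626), as was Pop7, which binds the catalytic RNA together with another subunit, at 0.27 (SE 0.11, adjusted p = 0.0316). The call of Pop7 was lost on leaving out IP library 19 or any of input libraries 12, 16, 20, 6 and 10 (adjusted p between 0.052 and 0.106). Pop1, the largest protein of both enzymes, was low throughout, at 4.20, 6.04 and 2.63 CPM in the control IP libraries and 2.94, 1.23, 1.19 and 3.11 CPM in the cKO ones. In the lysate it was at 2.37, 5.12 and 5.93 CPM in the control inputs and 1.04, 2.45, 0.199 and 2.64 CPM in the cKO inputs, and the lowest of them, input library 10, held 1 estimated count. The ratio of single animals ran from 0.444 to 5.96-fold, and the log2 ratio of 0.15 (SE 0.45) did not pass. Pop5 and Rpp38, whose log2 ratios were -0.17 and 0.23, did not pass either.

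Of the 19 members grouped here under the small subunit processome, 6 were higher in IP, 4 were lower and 9 did not pass. Utp18, a WD-repeat protein of the processome that in yeast recruits the helicase of the RNA exosome, was at 51.3, 48.2 and 41.4 CPM in the control IP libraries and 42.04, 36.004, 36.98 and 29.9 CPM in the cKO ones. In input it was at 23.9, 13.4 and 19.4 CPM in the control inputs and 19.6, 20.03, 16.9 and 20.8 CPM in the cKO inputs. All IP libraries were above all inputs, with a log2 ratio of 1.10 (SE 0.13, adjusted p = 1.04e-06) and 1.44 to 3.61-fold in single animals. Imp3 and Imp4, which bind Mphosph10 in a U3 snoRNP subcomplex, had log2 ratios of 0.72 (SE 0.12, adjusted p = 3.22e-05) and 0.53 (SE 0.11, adjusted p = 0.000298), without overlap between fractions. Mphosph10 itself was at -0.16 (SE 0.15) and did not pass, so the partners of this trio did not share a ratio. Nop14 at 0.60, Rrp36 at 0.54 and the U3 protein Rrp9 at 0.46 also passed as higher.

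Heatr1, the long HEAT-repeat protein that links RNA polymerase I transcription to the processome, had the lowest ratio of all members. It was at 4.02, 1.97 and 2.47 CPM in the control IP libraries and 1.40, 0.789, 3.40 and 1.85 CPM in the cKO ones. Its inputs were at 6.65, 1.71 and 3.76 CPM in the control inputs and 9.64, 4.66, 4.39 and 5.80 CPM in the cKO inputs. IP was below input in 6 of 7 animals, with control animal 15 the exception, and the log2 ratio was -1.13 (SE 0.39, adjusted p = 0.0174). Its lowest count was 12, and its coefficient of variation within a group was 38.0% to 61.5%. The call was lost without IP library 15 (log2 -0.97, adjusted p = 0.0599) or input library 12 (log2 -0.85, adjusted p = 0.0831). Utp15, which belongs to the first complex to bind the precursor, was at 15.2, 18.6 and 17.3 CPM in the control IP libraries and 19.6, 10.1, 20.5 and 6.55 CPM in the cKO ones. The input libraries had 25.8, 25.3 and 18.4 CPM in the control inputs and 26.7, 18.9, 34.7 and 25.7 CPM in the cKO inputs. IP was below input in all 7 animals, least in animal 19 and most in animal 17, and the log2 ratio was -0.67 (SE 0.22, adjusted p = 0.0145). Without IP library 11 it was -0.57 (adjusted p = 0.0602). Nol6, of the UTP-C complex, was at 40.2, 58.3 and 50.4 CPM in the control IP libraries and 45.8, 42.3, 40.4 and 34.8 CPM in the cKO ones. Input levels were 58.5, 65.4 and 61.4 CPM in the control inputs and 60.7, 73.3, 49.04 and 68.9 CPM in the cKO inputs, and the fractions overlapped, although each animal's IP was below its own input. The log2 ratio was -0.47 (SE 0.11, adjusted p = 0.00134). Utp3 was the other processome member that passed as lower, at -0.36. The 8 members grouped under the processome and not yet named had log2 ratios from -0.31 to 0.28 and did not pass. They are Wdr43, Wdr75, Wdr3, Nol10, Nol11, Rrp12, Tsr1 and Bms1. Wdr43 passed without IP library 17 (log2 0.41, adjusted p = 0.0119) and without input library 10 (log2 0.35, adjusted p = 0.0496).

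Among the 9 large subunit factors, the helicase Ddx21 at 0.77 (SE 0.17, adjusted p = 0.000632) and the methyltransferase Ftsj3 at 0.52 (SE 0.14, adjusted p = 0.00276) were higher in IP. Wdr12 at -0.45 (SE 0.10, adjusted p = 0.000829) and Rrp1 at -0.44 (SE 0.10, adjusted p = 0.000758) were lower. Wdr12 works in the PeBoW complex with Bop1 and Pes1. Bop1 was at 50.4, 59.6 and 47.5 CPM in the control IP libraries and 54.7, 50.5, 49.7 and 44.5 CPM in the cKO ones. In the lysate it was at 59.2, 53.8 and 67.99 CPM in the control inputs and 52.6, 53.4, 48.2 and 61.5 CPM in the cKO inputs, and the log2 ratio of -0.16 (SE 0.095) did not pass. Pes1, at 0.27 (SE 0.16), did not pass either. Wdr12 was the PeBoW subunit whose fractions did not overlap, and it overlaps Carf in the annotation, as Bop1 overlaps Mroh1 and Scx. The methyltransferase Nop2, Nop16 and the polynucleotide kinase Nol9 had log2 ratios of 0.21, 0.041 and -0.0089 that did not pass. Nol9 had the widest spread between replicates of any member in the cKO IP group, with a coefficient of variation of 85.6%, since it was at 11.6, 2.10, 13.3 and 1.68 CPM in animals 1, 5, 9 and 17.

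Of the 3 nucleolar scaffold proteins, 2 were lower in IP and 1 did not pass. Ncl, the nucleolin gene, was at 43.4, 57.8 and 47.1 CPM in the control IP libraries and 47.2, 47.3, 38.4 and 52.9 CPM in the cKO ones. Its inputs were at 62.2, 73.9 and 58.1 CPM in the control inputs and 66.4, 60.3, 53.03 and 57.9 CPM in the cKO inputs. IP was below input in each of the 7 animals and the log2 ratio was -0.37 (SE 0.10, adjusted p = 0.00438). Nolc1, which binds snoRNPs in the nucleolus and Cajal bodies, was at 0.7 to 0.806 times its input in single animals, with a log2 ratio of -0.41 (SE 0.093, adjusted p = 0.00086). Npm1, the histone chaperone nucleophosmin, was at 224, 245 and 201 CPM in the control IP libraries and 239, 199.9, 224 and 215 CPM in the cKO ones. The input libraries had 241, 232 and 197 CPM in the control inputs and 227, 211, 293 and 222 CPM in the cKO inputs, and the log2 ratio of -0.059 (SE 0.093) did not pass. Reads of Npm1 can be shared with its processed copies in the genome, which makes its count less certain.

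Of the 3 box C/D core proteins, 2 were lower in IP and 1 did not pass. Fbl, the methyltransferase fibrillarin, was at 18.1, 18.99 and 15.5 CPM in the control IP libraries and 14.7, 14.3, 11.2 and 15.6 CPM in the cKO ones. Input levels were 13.6, 12.2 and 14.8 CPM in the control inputs and 11.7, 9.63, 10.8 and 15.4 CPM in the cKO inputs. It was above input in all 7 animals, by 1.02 to 1.55-fold, and the log2 ratio was 0.30 (SE 0.15, adjusted p = 0.0921). It passed without IP library 9 (log2 0.39, adjusted p = 0.0329) or input library 18 (log2 0.37, adjusted p = 0.0403), and with libraries scaled by their total alone its log2 ratio was -0.085. Its partner Nop58 was at 28.4, 33.3 and 26.9 CPM in the control IP libraries and 28.03, 29.95, 30.5 and 26.1 CPM in the cKO ones. In the lysate it was at 47.999, 38.8 and 44.7 CPM in the control inputs and 42.8, 43.4, 41.5 and 38.3 CPM in the cKO inputs. Every IP library was below every input library, and the log2 ratio was -0.55 (SE 0.10, adjusted p = 6.71e-05). The other partner, Nop56, had -0.33 (SE 0.092, adjusted p = 0.00428). Nop58 had 0.682 times the input level.

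None of the 4 members of the box H/ACA core passed, where 28 of the 53 members did not pass. Dkc1, the pseudouridine synthase dyskerin, was at 50.9, 38.9 and 37.4 CPM in the control IP libraries and 39.4, 39.7, 46.7 and 25.2 CPM in the cKO ones. Its inputs were at 29.8, 33.1 and 36.8 CPM in the control inputs and 34.8, 35.01, 37.9 and 36.02 CPM in the cKO inputs. IP library 17 was the lowest of all 14 libraries, and the log2 ratio was 0.21 (SE 0.13, adjusted p = 0.149). Without that library it was 0.35 (adjusted p = 0.00669). Nhp2, Nop10 and Gar1 had log2 ratios of 0.20, -0.071 and -0.16. Nhp2 passed without IP library 9 (log2 0.27, adjusted p = 0.0408) and without IP library 17 (log2 0.30, adjusted p = 0.014).

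Other genes of the pathway were taken from fixed lists. Of 93 tested genes from a list of other ribosome biogenesis genes, 37 were higher and 10 lower, with a median log2 ratio of 0.25, beside 31.8% higher and 34.7% lower of all genes. The extremes of that list, named after their values were seen, were the rRNA methyltransferase Rrp8 at 2.52 (adjusted p = 4.08e-10) and the RNase P/MRP subunit Rpp25 at -1.22 (adjusted p = 1.05e-06). For RNA polymerase I and its factors, 3 of 15 were higher and 1 lower, with a median of 0.09. Cytosolic ribosomal protein genes, the products that assemble with the RNA, were higher for 57 of 81 and lower for 1, with a median of 0.41. The highest of them was Rpl10a, the gene of the protein that carries the tag, at 2.68, and its IP libraries ran from 497 to 1885 CPM. Whether reads of the viral transgene entered that count was not tested.

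**Figure D3:**
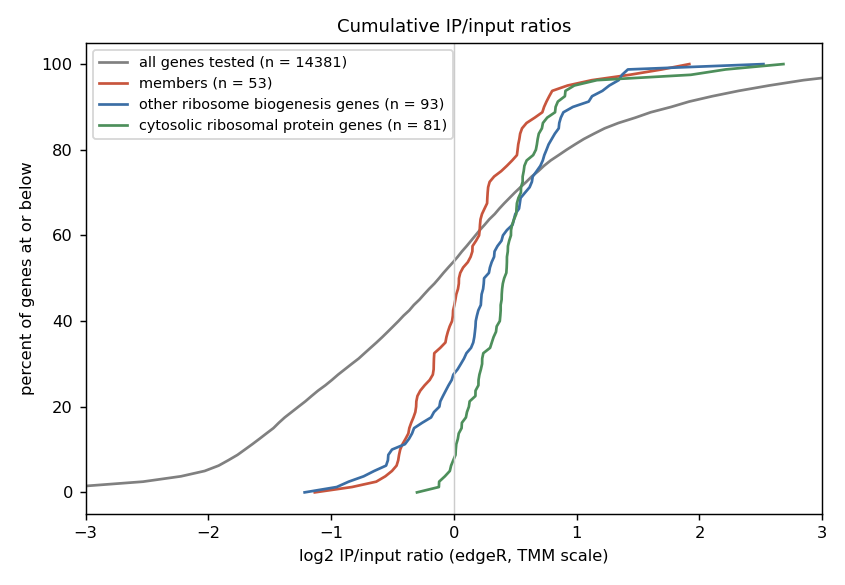
Cumulative share of genes (percent) by log2 IP/input ratio for all 14381 genes tested, the 53 members, 93 other ribosome biogenesis genes and 81 cytosolic ribosomal protein genes. The members' curve crosses the middle at 0.041, to the left of the ribosomal proteins at 0.41, and all 3 lists are narrower than the curve of all genes.

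Start regions were examined for words that the members share, from 250 bases before to 50 bases after each annotated start and on both strands. RefSeq entries were found for 45 of the 53 members. CACGTG occurred at 9 of 45 members, which is 20%, beside 8.09% of all 27025 genes with an entry and 11.3% of the 10621 protein-coding genes tested here. Exosc5, Utp18 and Imp4, 3 of the members that were higher in IP, held it, as did Nol11, Nop2, Pes1, Rpp38, Tsr1 and Wdr43, which did not pass. A 10-base palindrome centred on CGCG, in capitals in the last 2 stretches below, occurred at 3 members (Nol9, Exosc10 and Rpp38), or 6.67%, beside 0.525% and 0.998%. GGGCGG was held by 68.9% of the members and 67.6% of the tested protein-coding genes, CCAAT by 35.6% and 42.7%, and TATAAA by 8.89% and 9.14%. The NRF1 motif occurred at 1 member, 2.22% beside 2.13%, and the long YY1 motif at none, beside 1.64%. These shares are descriptions of few genes without a test, and hits of different words did not overlap. Imp4 is shown because its E-box lies farther upstream, and Nol9 and Rpp38 because they hold the palindrome, with the words in capitals.
Imp4 (chr1:34439679-34439738, plus strand): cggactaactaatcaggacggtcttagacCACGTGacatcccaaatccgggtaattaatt
Nol9 (chr4:152039278-152039347, plus strand): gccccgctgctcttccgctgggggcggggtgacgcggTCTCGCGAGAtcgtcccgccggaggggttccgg
Rpp38 (chr2:3332729-3332788, minus strand): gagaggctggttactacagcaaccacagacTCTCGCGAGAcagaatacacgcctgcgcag
For Nol9 the start used is the more downstream of its 2 annotated starts.

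In the genome, the 53 genes lie on 16 chromosomes in GRCm38.p6, and 4 of them (Nol6, Exosc3, Exosc10 and Nol9) share chromosome 4 with Slc2a1. Small nucleolar RNA genes lie inside 6 members (Nop56, Nop58, Dkc1, Ncl, Wdr43 and Tsr1), 16 in all, with 5 in Nop56 at 2:130274367-130279313. Nop56 and Nop58 are proteins of the box C/D particle that such RNAs enter. The deposited counts are of protein-coding transcripts, so the hosted RNAs are not measured here. Another protein-coding gene overlaps 12 members, for which reads of the partner could have been counted.

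Between genotypes, no member passed the test in the IP, which compares the amount of these mRNAs on tagged ribosomes of cKO and control mice. Over 13296 genes, 0.0451% passed (6 genes). At an unadjusted p under 0.05 there was 1 member, Utp18, beside 2.58% of all genes, and DESeq2 and the exact test of edgeR also called 0 members. The median log2 fold change of the members (cKO over control) was -0.074, beside 0.012 for all genes, and 12 of 53 (22.6%) were above 0, beside 52.3% of all genes. Within genotypes, the members' median deviation from the group mean had an SD of 0.078 between IP libraries. That is the spread of single libraries, not the error of a difference between means of 3 and 4 libraries. Members are not replicates of the condition. Of other ribosome biogenesis genes 38.7% were above 0 (median -0.058), of astrocyte markers 40% (median -0.058) and of cytosolic ribosomal protein genes 77.8% (median 0.058). Leaving out cKO library 17 gave a median of -0.048, and the median was -0.12 without control library 19 or without cKO library 9. Utp18, the processome protein with the highest ratio of its role, had -0.36 (SE 0.16, edgeR adjusted p = 1), and its groups overlapped between 41.4 CPM in control animal 19 and 42.04 CPM in cKO animal 1. The 4 largest changes in size were those of Pop1, Heatr1, Nol9 and Nop2. Pop1 had a log2 fold change of -1.01 (SE 0.58), and Heatr1 one of -0.59 (SE 0.66). Both are among the members with the lowest counts. For Heatr1, leaving out control library 11 gave -0.24 and leaving out cKO library 9 gave -1.07. Nol9 was at 11.9, 7.67 and 11.8 CPM in controls and 11.6, 2.10, 13.3 and 1.68 CPM in cKO animals 1, 5, 9 and 17, which gave -0.53 (SE 0.65). Its 2 low libraries, 5 and 17, are also among the 3 with the lowest astrocyte marker sums, while the third, 19, was at 11.8 CPM. In the cKO inputs Nol9 was at 10.2, 9.10, 9.57 and 6.20 CPM. Leaving out animals 5, 17 and 19, a choice made after seeing the data, gave a change of 0.36. Whether the marker level bears on Nol9 was not tested. Nop2 was at 23.5, 34.95 and 27.2 CPM in controls and 27.6, 11.97, 20.2 and 24.3 CPM in cKO animals, with -0.43 (SE 0.27). Animal 5 was the low one, and without it the change was -0.23.

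By complex, no change in IP passed the test, and 41 of 53 members had a change smaller than its standard error. The box C/D core had log2 changes of -0.31 for Fbl, -0.24 for Nop56 and -0.027 for Nop58. The 9 exosome genes lay between -0.41 for Exosc10 and 0.21 for Exosc8, the 4 H/ACA genes between -0.18 and 0.14, and the scaffold genes Ncl, Npm1 and Nolc1 between -0.075 and 0.032. The change of Exosc10 was -0.18 without IP library 17 and -0.061 without animals 5, 17 and 19. Of the fixed examples, Dkc1 had -0.15, Bop1 -0.059 and Exosc3 -0.045. Control and cKO libraries did not overlap for Nop56, which was lower at 54.6, 58.3 and 56.5 CPM against 49.1, 48.9, 52.9 and 38.7 CPM, and for Nop16, which was higher at 34.1, 33.9 and 32.04 CPM against 34.96, 39.1, 37.7 and 46.005 CPM. Of all genes, 3.12% were separated as lower and 1.97% as higher. With 3 against 4 libraries, an exact permutation test cannot give a two-sided p under 0.0571. The median standard error of a member was 0.20 on the log2 scale. For 50 of 53 members an interval of 1.96 SE lay within a change of 1 in either direction. That multiplier is the normal one, so with so few libraries the interval is narrower than a 95% interval of the test. The exceptions are Pop1 (interval -2.16 to 0.13), Heatr1 (-1.89 to 0.70) and Nol9 (-1.80 to 0.74).

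**Figure D4:**
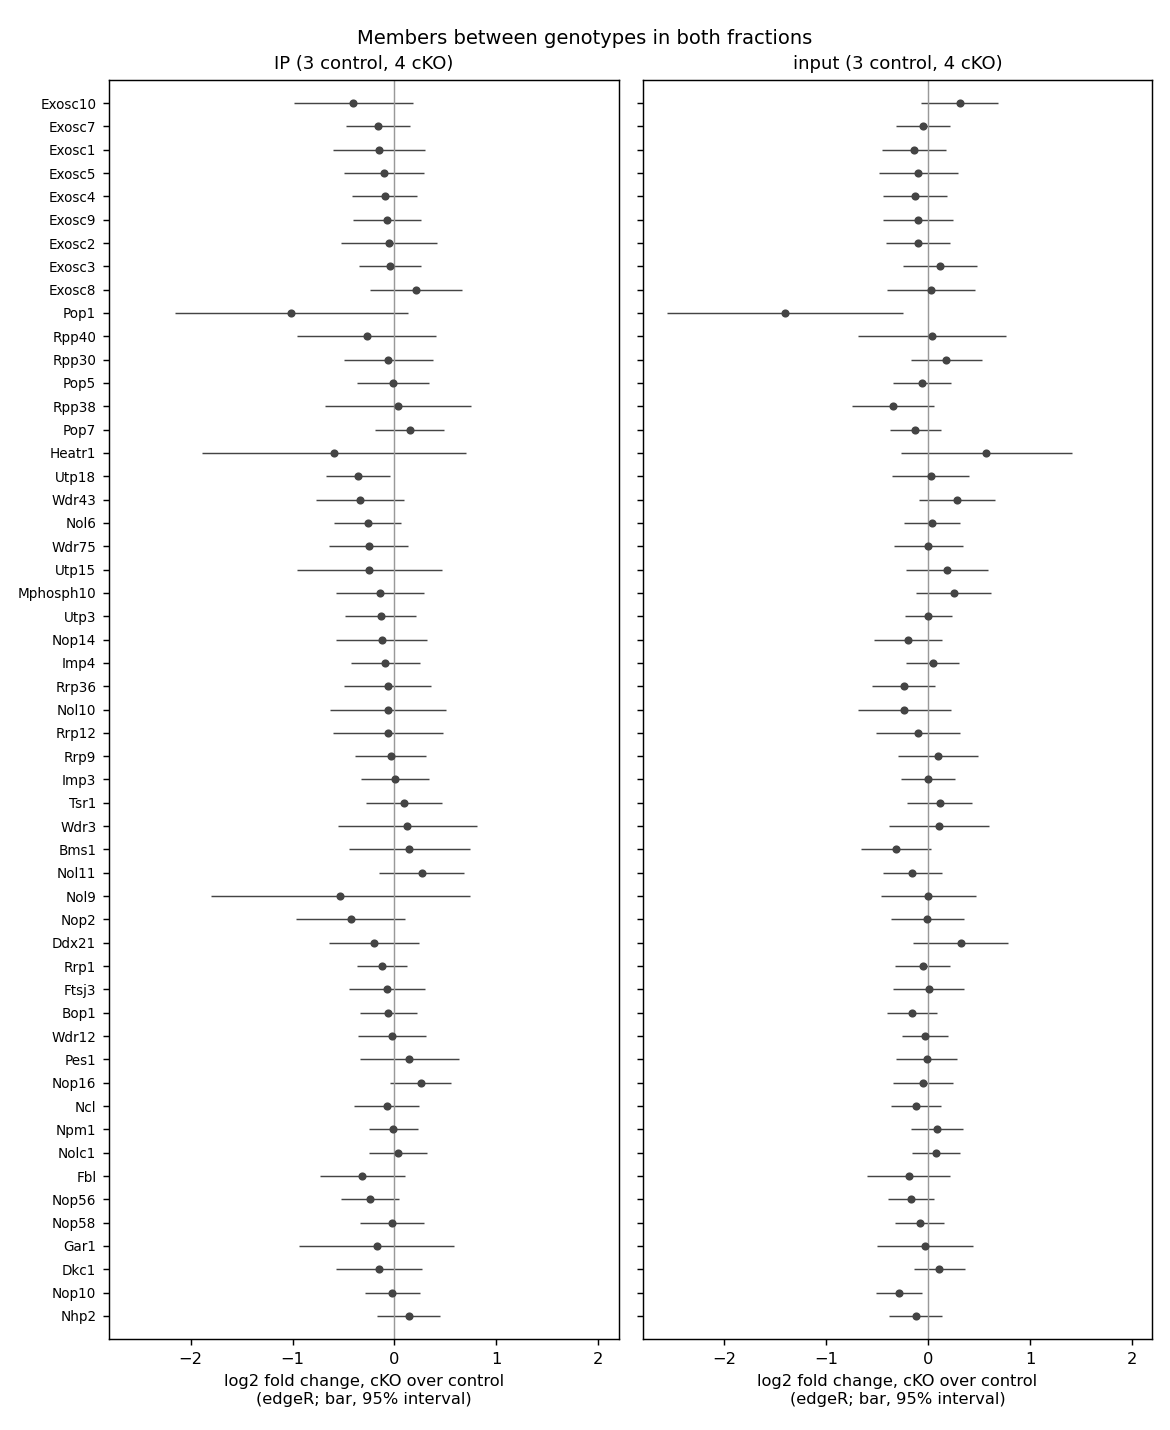
log2 fold change (cKO over control) of the 53 members in IP (left) and input (right), 3 control and 4 cKO libraries each, with genes ordered by role. Bars are 1.96 SE on either side, marked as a 95% interval on the axis but narrower than one of the test. Most bars cross 0, no member passed the adjusted test, and Pop1 is the lowest point in both panels.

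In the input, which compares the genotypes in RNA of the cortical lysate, no member passed either, where 0.073% of 13694 genes did (10 genes). DESeq2 and the exact test also called 0 members. The median of the members was -0.029, beside 0.0069 for all genes, and 24 of 53 (45.3%) were above 0, beside 51.5% of all genes. Pop1 had a log2 fold change of -1.40 (SE 0.59, edgeR adjusted p = 0.998), the largest of the members. Of its cKO inputs, library 10 was the lowest with 1 count, and without it the change was -1.12. Nop10 of the H/ACA core had -0.28 (SE 0.11, edgeR adjusted p = 0.998), from 94.6, 112 and 95.3 CPM in controls to 87.2, 85.3, 71.97 and 84.5 CPM in cKO animals. These 2 members had an unadjusted p under 0.05, beside 4.24% of all genes. Nop10 and Rpp38 were the members whose groups did not overlap, both lower, as were 3.26% of all genes. Heatr1 was at 0.57 (SE 0.43) and Exosc10 at 0.31 (SE 0.19), on the other side of 0 from their values in IP. The Heatr1 change was 0.25 without control input library 16, 0.26 without cKO input library 2 and 1.13 without control input library 12. Of the fixed examples, Fbl had -0.19, Ncl -0.12, Npm1 0.089, Dkc1 0.11, Bop1 -0.16 and Exosc3 0.11. For 51 of 53 members the interval of 1.96 SE lay within a change of 1. Endothelial markers summed to 58.2 to 73.2 CPM in the cKO inputs and 38.0 to 46.4 CPM in the control inputs, and all 8 oligodendrocyte markers had log2 fold changes (cKO over control) below 0 in both fractions (medians -0.36 in IP and -0.41 in input). Their part in the members' values was not tested.

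Whether the IP/input ratio itself differed between genotypes was tested by the interaction term of the same fit. No member passed, as 0 of 14381 genes did (0%), and 2.53% of all genes had an unadjusted p under 0.05 by edgeR. DESeq2 called 2 genes, neither a member. None of the members had an unadjusted p under 0.05. The nearest were Wdr43 of the processome, with a log2 difference in ratio (cKO minus control) of -0.63 (SE 0.30, edgeR adjusted p = 1), and Exosc10, with -0.74 (SE 0.38, edgeR adjusted p = 1). For Exosc10 the ratio was 1.22, 2.05 and 1.91 in the control animals and 1.03, 1.22, 1.07 and 0.614 in the cKO animals. The controls were above the cKO animals, by less than the rounding at the nearest pair. Exosc3 was the other member without overlap, also lower in cKO, as were 2.01% of all genes.

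The gene of the pathway lists that did differ between genotypes is no member: Pop4, an RNase P/MRP subunit, on chromosome 7 at 38262812 to 38271393 (GRCm38.p6). It was the gene called among the 93 other biogenesis genes and the 15 genes of RNA polymerase I. In input it was at 32.997, 26.7 and 28.3 CPM in controls and 9.52, 10.01, 10.8 and 7.65 CPM in cKO animals. The groups are far apart, and the log2 fold change was -1.64 (SE 0.17, adjusted p = 0.00103), or 0.32 times the control level. In IP it was at 39.01, 43.8 and 34.5 CPM in controls and 17.9, 22.1, 18.97 and 17.9 CPM in cKO animals, again without overlap. The log2 fold change there was -1.01 (SE 0.17) with an adjusted p of 0.154 by the quasi-likelihood test, 0.000593 by DESeq2 and 0.000739 by the exact test of edgeR. The IP change also passed the quasi-likelihood test in 1 fit over IP and input (adjusted p = 0.0192) and without animals 5, 17 and 19 (log2 -1.15, adjusted p = 0.0272). DESeq2, the exact test and these 2 are the 4 of 15 alternatives that passed. With any single IP library left out, the quasi-likelihood test did not pass (adjusted p of 0.193 or more). Nor did it pass with other scaling or filters (adjusted p from 0.136 to 0.503). IP and input come from the same animals, so the fractions are not independent evidence. The difference between the fractions did not pass (interaction 0.62, SE 0.24, adjusted p = 1). With animals 5, 17 and 19 left out, the input change was -1.58 (adjusted p = 0.141) with 2 control and 2 cKO libraries left. Of the 6 member subunits of the same enzymes, Pop1 had the changes given above, with a standard error of 0.58 in IP and 0.59 in input, that did not pass, and Pop5, Pop7, Rpp30, Rpp38 and Rpp40 had log2 changes between -0.34 and 0.18.

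**Figure D5:**
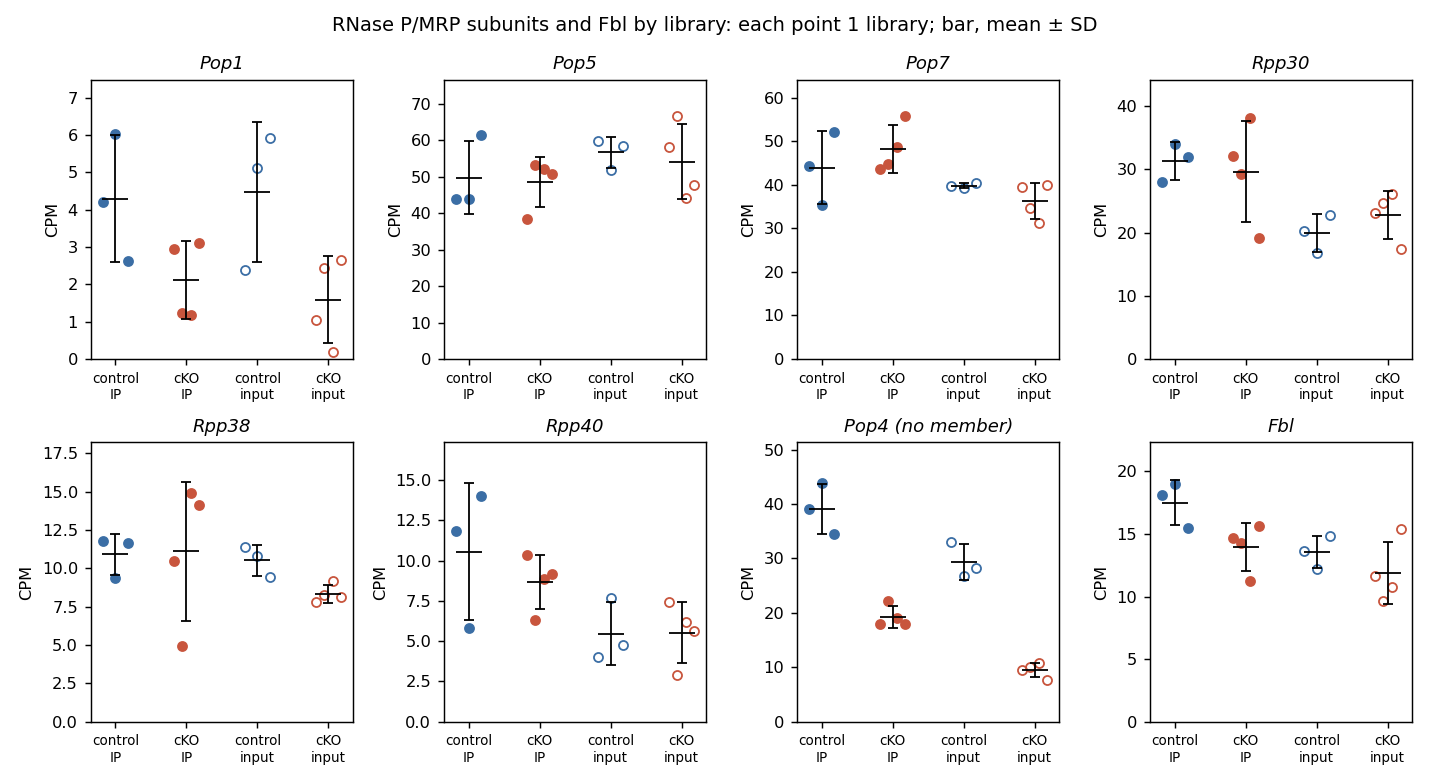
CPM per library of the 6 RNase P/MRP members, of Pop4 and of Fbl in control and cKO libraries of IP (filled) and input (open), with group means and SD (3 control and 4 cKO libraries per fraction). Pop4 is lower in cKO libraries of both fractions without overlap, while the other genes overlap between genotypes in at least 1 fraction.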

How the data were processed

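RNA of TRAP IP and input of mouse cortex was sequenced from Smart-seq2 libraries as single-end reads of 100 nt. Per the labels and methods, adapters were removed with cutadapt 1.15 and transcripts of GENCODE release 17 for mouse (GRCm38) were quantified with kallisto 0.44.0. The authors deposited estimated counts per gene, summed over protein-coding transcripts and not normalized. Kallisto splits a read among similar transcripts, so copies of a gene share its count. The table has 18 columns, of which 14 were used. The genotype of the 7 IP columns came from the study's names of its samples and each input is the next even column, and 4 columns were not used. The 14 columns are 3 control and 4 cKO samples per fraction, while the labels list 5 control and 4 cKO samples in each fraction.

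Estimated counts were rounded to whole numbers, filtered with filterByExpr, scaled by TMM and tested with the quasi-likelihood test of edgeR 4.0.16 (R 4.3.3, limma 3.58.1), with Benjamini-Hochberg adjustment over all genes tested and a threshold of 0.05. Genotypes were compared within the 7 IP and within the 7 input libraries, and IP with input, and the interaction, in 1 fit of 14 libraries with the 4 groups as terms. CPM are on 1 TMM scale over the 14 libraries. Standard errors were taken from the F statistic, and intervals are 1.96 of them on either side. That is the normal multiplier, so they are narrower than 95% intervals of the test. At 3 counts the floor of a library was 0.0875 to 0.598 CPM, which covers counting error only. The members and lists were chosen with earlier results of these data known. Members were named by role, and values in every library are given for fixed examples, the 4 highest and 4 lowest IP/input ratios and the 4 largest IP changes between genotypes. Other genes were chosen after their values were seen. Each animal gives 1 IP and 1 input library. Replicates differed by more than counting error (lowest chi-square per degree of freedom within a group 7.86). Deviations of an animal's IP and input from their group means correlated at 0.025 to 0.141 over 14381 genes.

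Alternatives were DESeq2 1.42.0, RLE and library-size scaling, no filter, at least 1 CPM in 3 libraries, edgeR's exact test, 1 fit over both fractions, the replicate block, leaving out each library and, chosen after seeing the data, leaving out animals 5, 17 and 19. Tested on simulated counts with 200 changed genes, the test recovered 152 (IP, 13225 genes), 153 (input, 13503 genes), 180 (IP against input, 13959 genes) and 129 (interaction, 14038 genes). False calls were 6, 7, 10 and 5 in the same order. All planted changes were above 1 in size on the log2 scale and lay in genes that were not of low count. The recovery therefore does not apply to changes as small as those of most members between genotypes. Gene coordinates and start regions came from RefSeq (GRCm38.p6).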

Additional observations from a re-analysis of the deposited data

Results flagged for a closer look

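Of 108 sets of 4 cKO libraries examined for the 53 members and Pop4, 4 held a library far from the others by Dixon's criterion, where chance gives about 5.4. Pes1 in the cKO IP libraries was at 71.1 CPM in animal 17, beside 36.4 to 39.1 CPM in the other 3. Mphosph10 in the same group was at 11.7 CPM in animal 17, beside 17.6 to 18.9 CPM. Pop5 in the cKO IP libraries was at 38.5 CPM in animal 1, beside 50.9 to 53.2 CPM. Nop10 in the cKO inputs was at 72.0 CPM in input library 10, the shallowest library, beside 84.5 to 87.2 CPM. Animal 17 has the shallowest IP library and the lowest astrocyte marker sum of the IP libraries.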

How the results depend on the processing

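Over 15 alternatives for each genotype comparison and 21 each for the IP/input ratio and the interaction, no member was called between genotypes, and Exosc5, Exosc3, Utp18, Exosc4, Imp3, Nop58, Wdr12, Nolc1 and Ncl were called between IP and input in all 21. The count of all genes called was 6 between genotypes in IP, and 21 with DESeq2, 18 with the exact test, 10 with 1 fit over IP and input and 29 without animals 5, 17 and 19. In input it was 10, and 43 with DESeq2, 51 with the exact test, 6 without animals 5, 17 and 19 and 6 to 14 without one library. The members' median log2 change in IP was -0.074, and -0.12 to -0.048 without one library. In input it was -0.029, 0.0262 without those animals, and -0.10 to -0.00703 without one library.

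Between IP and input, 5 members were higher and 23 lower with library-size scaling, with a median log2 ratio of -0.34, and 5 were lower without animals 5, 17 and 19, with a median of 0.19. The median was 0.11 without the filter and 0.0283 to 0.14 without one library. With library-size scaling the log2 ratio turned negative for 17 members, which are Pop7 (-0.10), Nop16 (-0.34), Nol11 (-0.36), Tsr1 (-0.35), Exosc10 (-0.000935), Bms1, Dkc1, Exosc8, Exosc9, Fbl, Nhp2, Nop2, Pes1, Pop1, Rpp38, Wdr43 and Wdr75. That scaling leaves out the TMM factors of 0.768 to 0.948 in IP and 1.07 to 1.18 in input. The replicate block, pairing each animal's IP with its input, kept the 14 higher and 11 lower members, the same 25 genes, with a median of 0.049, and called 0 genes in the interaction, so it changed no call of a member. Each IP library correlated best with its own animal's input within its genotype. The genotypes are different animals, so a comparison of genotypes within a fraction has no pairs to use. The columns also carry no replicate number. In the interaction, DESeq2 called 2 genes. The self-test made calls at this sample size for planted changes above 1 in size on the log2 scale, and smaller changes were not tried. Single counts went down to 1 for Pop1 and 12 for Heatr1.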

Other observations

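RNase P/MRP subunits outside the 53 members, named after their values were seen, had IP/input ratios at both ends. Rpp14 was at 1.20 (adjusted p = 2.31e-07) on the log2 scale and Rpp25l, a paralog of Rpp25, at 1.42 (adjusted p = 1.15e-08), while Rpp25 was at -1.22 (adjusted p = 1.05e-06). In CPM, Rpp25 was at 19.3, 17.1 and 23.97 in the control IP libraries and 46.8, 36.97 and 45.9 in their inputs, and Rpp25l was at 78.5, 79.2 and 64.7 and 29.3, 22.6 and 24.4. The paralogs thus lay on opposite sides of the input level in these animals, and every IP library of each was beyond all of its inputs. Exosc6, the remaining ring subunit of the exosome, was listed at 0 in 13 of the 14 libraries and at 2.602 CPM (31 estimated counts) in IP library 17, and it was not tested. Of the transcription machinery, Polr1d, a subunit shared by RNA polymerases I and III, was at 0.52 (adjusted p = 5.48e-05). Znrd1 (also called Polr1h) was at 0.48 (adjusted p = 0.00244). Taf1d, of the promoter selectivity factor, was at -0.98 (adjusted p = 0.00713), while Taf1c, also of that factor, was at 1.40. These values also were chosen after they were seen.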
